A study of Homo sapiens with 12 samples.

Results

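The short arm of chromosome 3 (3p) held 1612 of the 79473 KDM2B peaks that 7 human leukaemia cell lines had in all, and 664 of the 29071 regions left after overlapping peaks of all lists were merged. A peak belonged to 3p when its midpoint lay below 91 Mb on chromosome 3 of the hg19 build, which put the boundary in the gap around the centromere. The arm was selected on the measured number of peaks, because HPB-ALL and REH had few peaks there, so the shares of peaks on 3p and the contrast of those lines with the others are given as descriptions with no test. No peak lay close to the boundary. The last peak before it was at 72.9 Mb in HPB-ALL, at 73.1 Mb in REH and at 89.3 Mb in JURKAT, where it went furthest, and the first peaks after it lay at 93.7 Mb in HPB-ALL and 98.3 Mb in REH.

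The series asked where KDM2B binds in the genome of these lines, by chromatin immunoprecipitation and sequencing (ChIP-seq) with a KDM2B antibody from Millipore. It held 12 libraries, 7 of KDM2B and 5 of input, and only the KDM2B peak lists were used here. The inputs were of HPB-ALL, REH, K562, SUP-B15 and SIL-ALL, and the series held no input of DND41 or JURKAT. The lines were HPB-ALL and REH, and, beside them, K562, SUP-B15, DND41, JURKAT and SIL-ALL, all kept in IMDM medium with 10% FBS and with no treatment given in the labels. Each line was a single culture with 1 library and 1 list, so there were no replicates and lines were the only units of comparison. By background knowledge, T-cell acute lymphoblastic leukaemia (T-ALL) is the origin of HPB-ALL, DND41, JURKAT and SIL-ALL, B-cell precursor leukaemia that of REH and SUP-B15, and chronic myeloid leukaemia that of K562. Copy number was not analysed here.

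KDM2B is a histone demethylase of the JmjC family. Its CXXC zinc finger binds DNA with unmethylated CpG dinucleotides, which cluster in CpG islands at the starts of many genes, and through this contact it brings a variant Polycomb repressive complex (PRC1) to those places. The short arm of chromosome 3 is known in cancer genetics as an arm that many tumours lose in part, and it carries tumour suppressor genes such as VHL in 3p25.3, SETD2 in 3p21.31, BAP1 in 3p21.1 and FHIT in 3p14.2. Genes are named here only as background on a band: no hg19 annotation was used, and no peak was assigned to a gene.

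HPB-ALL had 60 peaks on 3p among 12765, which was 0.470% of its list (Wilson 95% interval 0.365 to 0.605%). REH had 82 among 8146, or 1.01% (0.812 to 1.25%). These were the lowest shares of the 7 lists. K562 had 125 peaks on the arm (2.10%, 1.77 to 2.50%), SUP-B15 had 173 (2.30%, 1.98 to 2.66%), and SIL-ALL had 349 (2.28%, 2.06 to 2.53%). JURKAT had 405 (2.73%, 2.48 to 3.0%) and DND41 had 418 (2.80%, 2.54 to 3.07%). The intervals of these 5 lines lay above those of HPB-ALL and REH, and the intervals cover counting error only.

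The long arm (3q) did not share this order. HPB-ALL had 3.35% of its list on 3q and REH 2.73%, while the 5 other lines had between 2.46% (K562) and 3.13% (JURKAT). Set within the chromosome, 12.3% of the chromosome 3 peaks of HPB-ALL lay on 3p (9.69 to 15.5%) and 27.0% of those of REH (22.3 to 32.2%), beside a median of 46.6% in the 5 other lines (42.4 to 49.2%). For scale, 3p makes up 2.94% of the hg19 sequence and, in the GRCh38.p14 annotation of RefSeq, carries 501 protein-coding genes, which are 47.0% of those of the chromosome. The 5 other lines thus split their peaks between the arms close to the way the genes are split, and HPB-ALL and REH did not.

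**Figure D1:**
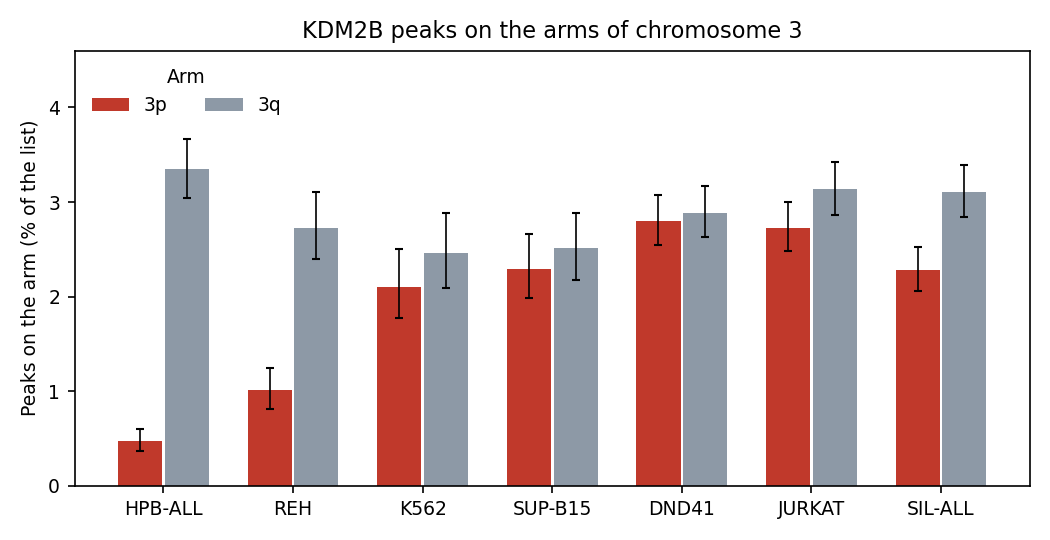
Peaks on 3p (red) and 3q (grey) as a percentage of each line's list, with Wilson 95% intervals as error bars and 1 library per line. HPB-ALL (0.470%) and REH (1.01%) are low on 3p. On 3q the bar of HPB-ALL (3.35%) is the highest of all lists, and that of REH (2.73%) stands among those of the other lines.

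HPB-ALL and REH were also lowest when the peaks were counted in other ways. Peaks of a list within 500 bp of each other formed 44 groups in HPB-ALL and 69 in REH, and between 103 (K562) and 252 (JURKAT) in the others. The sequence covered by peaks on the arm came to 11.7 kb in HPB-ALL and 19.8 kb in REH, beside 76.7 kb in SUP-B15 and 121 kb in JURKAT. K562 covered 90.0 kb with few peaks, since its peaks were wide (median 648 bp on 3p).

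Along the arm, HPB-ALL was low throughout against the median of the 5 other lines, and REH mainly in the middle. The arm was cut into bins of 5 Mb, and in each bin a line's share of its list was divided by the median share of the 5 other lines, which was above 0 in 17 of the 19 bins. HPB-ALL was below 0.5 of that median in 17 of 17 bins, with ratios from 0 to 0.387 and a median of 0.150. It was the lowest of all lists, ties included, in 11 of the 17, and in both bins from 60 to 70 Mb K562 had a lower share. From 75 to 80 Mb the median was that of SIL-ALL with 1 peak. REH was below 0.5 of the median of the 5 lines in 9 of 17 bins. On 3q the same ratio had a median of 1.20 in HPB-ALL (0.744 to 2.32) and was below 0.5 in 0 of 21 bins. REH was below 0.5 of the median in 6 of 21 bins of 3q, with a median ratio of 0.608, so low bins were not particular to 3p in this line.

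**Figure D2:**
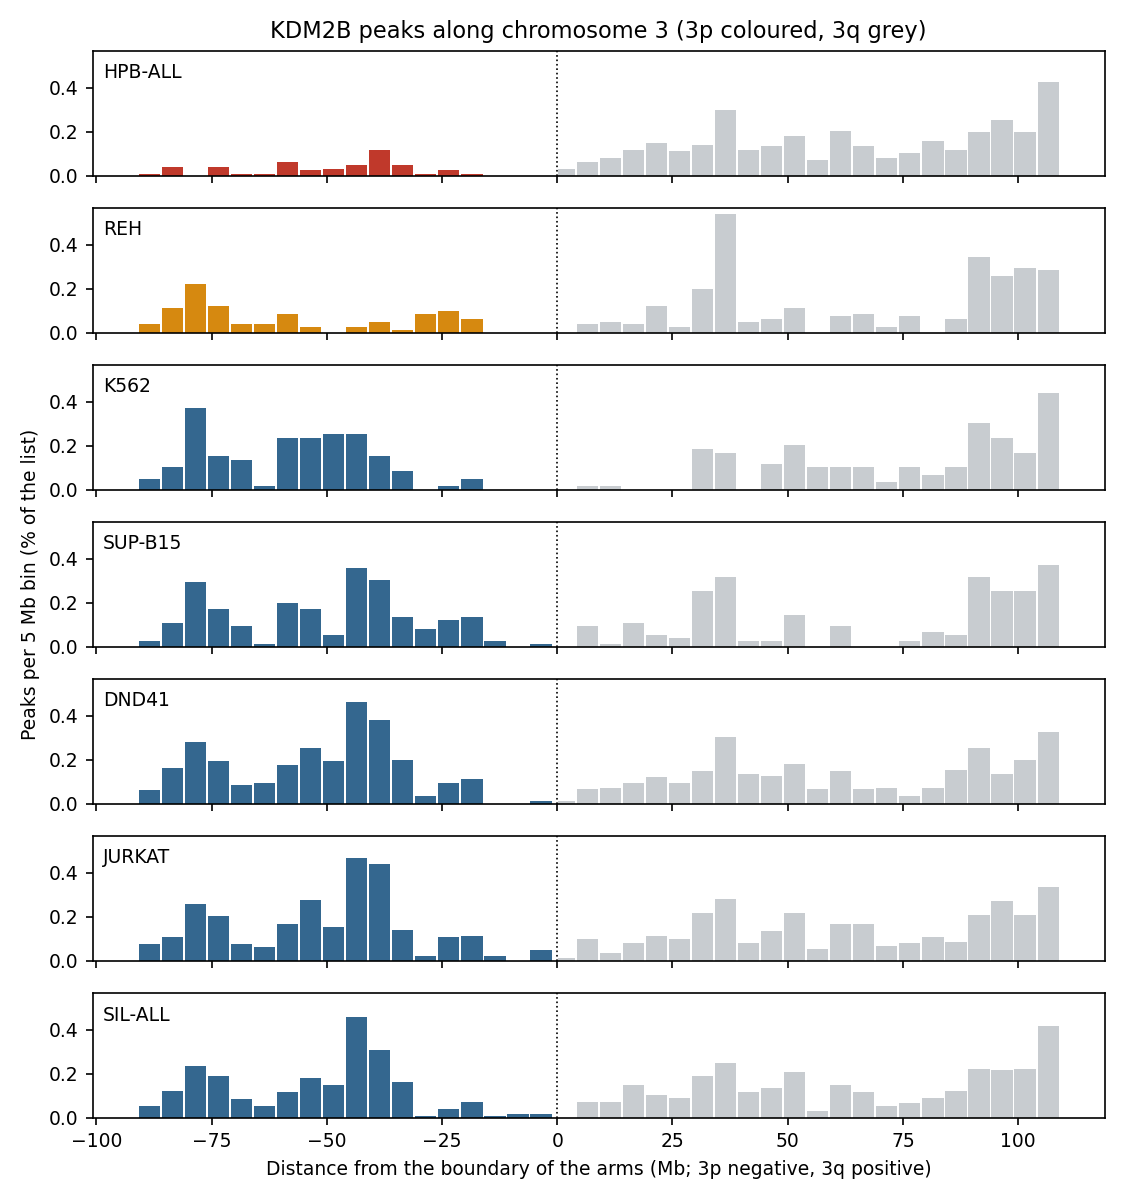
Peaks per 5 Mb bin as a percentage of each line's list, against distance from the boundary of the arms in Mb, with 3p coloured (negative distances) and 3q grey (positive). HPB-ALL is below the median of the 5 other lines in every bin of 3p where that median is above 0. REH has low bars in the middle of the arm, where DND41, JURKAT and SIL-ALL have their highest bars, and none near the boundary, where all lists thin out.

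The bin from 45 to 50 Mb held the most peaks, 258 over all lines. It had 6 peaks in HPB-ALL, 2 in REH, 15 in K562, 27 in SUP-B15, 69 in DND41, 69 in JURKAT and 70 in SIL-ALL. This bin lies within the gene-rich band 3p21.31. The next, from 50 to 55 Mb, held 220 peaks, of which HPB-ALL had 15, its highest count on the arm, and REH 4. The bin from 10 to 15 Mb held 178 peaks: HPB-ALL had 0, REH 18, K562 22, SUP-B15 22, DND41 42, JURKAT 38 and SIL-ALL 36. Here HPB-ALL alone was without a peak, and REH stood at 0.786 of the median of the 5 lines.

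After these bins had been seen, the arm was split at 35 and 60 Mb into 3 segments. In the outer segment, from 0 to 35 Mb, HPB-ALL had 21 peaks (0.165% of its list) and REH 53 (0.651%), beside a median of 0.943% in the 5 other lines (0.856 to 1.06%). In the middle segment, from 35 to 60 Mb, HPB-ALL had 34 peaks (0.266%) and REH 9 (0.110%, interval 0.0581 to 0.210%), beside 1.26% (0.976 to 1.49%). In the inner segment, from 60 to 91 Mb, HPB-ALL had 5 (0.0392%) and REH 20 (0.246%), beside 0.254% (0.0673 to 0.372%). REH therefore stood at 0.690 of the median in the outer segment, 0.0876 in the middle one and 0.966 in the inner one, while HPB-ALL stood at 0.174, 0.211 and 0.154. The share of REH in the inner segment lay within the range of the 5 lines, and its shares in the other segments lay below it.

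The 5 bins from 35 to 60 Mb held 2, 0, 2, 4 and 1 peaks of REH. The same bins held 38, 29, 69, 57 and 30 peaks of DND41, the T-ALL line with most peaks on the arm. The bins from 60 to 65 and from 65 to 70 Mb held 7 and 8 peaks of REH, at 4.25 and 1.05 times the median of the 5 lines. The first of these ratios rests on few peaks, since 3 of those lines had 5 peaks or fewer there besides K562, which had 0. Towards the centromere all lists thinned out, with 6 peaks over all lines from 75 to 80 Mb, 3 from 80 to 85 Mb, 13 from 85 to 90 Mb and 0 in the last bin, none of them from HPB-ALL, REH or K562.

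The 9 peaks of REH in the middle segment were few but not all weak. Scores are the authors' own value per peak and were turned into percentiles within the list, so that 50 is the middle peak of a list and 100 its top. One of the 9, in 3p14.3 (chr3:58223252-58223841), had a score of 300 and percentile 98.4. Another, in 3p21.31 (chr3:46924037-46924372), had percentile 80.4, and the others lay between 0.571 and 58.3. Of the 9 peaks, 8 lay in a region where another line also had a peak.

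Long stretches without a peak were then read by position. HPB-ALL had no peak from 9821809 to 15900850 (6.08 Mb), a stretch that runs over 3p25.3, 3p25.2 and 3p25.1 and where the 6 other lists had 236 peaks. REH had no peak from 39189709 to 46924036 (7.73 Mb; 189 peaks of 6 lines), from 52188568 to 58223251 (6.03 Mb; 157 peaks) and from 32612311 to 37508449 (4.90 Mb; 68 peaks). Other lists had long empty stretches too, and neither line was alone in this. The next stretches of HPB-ALL, of 5.89 and 5.42 Mb, held 71 and 21 peaks of other lines. K562 had none from 58224419 to 67048685 (8.82 Mb), where the others had 72, and DND41 none from 72937270 to 88107750 (15.2 Mb), where the others had 21.

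By band, 3p21.31 held the most peaks: 9 in HPB-ALL and 4 in REH, 18 in K562, 30 in SUP-B15, 88 in DND41, 86 in JURKAT and 82 in SIL-ALL. Per length the densest was 3p21.2, with 60.6 peaks per Mb over all lines. In 3p25.2 HPB-ALL had 0 peaks and REH 11, which was among the highest counts of that band (6 in K562 to 12 in JURKAT for the others). In 3p21.1, the band of the deubiquitinase gene BAP1, REH had 0 peaks, HPB-ALL 7 and the others 3 to 19. In 3p22.1 REH had 0 as well, and HPB-ALL, with 2, was also below the 6 to 26 of the others. Band 3p14.2, which carries the large fragile-site gene FHIT, had 0 peaks in HPB-ALL, 6 in REH, 0 in K562, 5 in SUP-B15, 3 in DND41, 2 in JURKAT and 1 in SIL-ALL. It was sparse in all lists, at 3.33 peaks per Mb.

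Giemsa-light bands, which stain pale and tend to be gene-rich, make up 40.4% of the arm's length. They held 41.7% of the 3p peaks of HPB-ALL and 45.1% of those of REH, beside 52.0% in K562, 53.8% in JURKAT, 54.3% in SUP-B15, 54.3% in DND41 and 59.6% in SIL-ALL. The share in pale bands was thus close to their share of the length in HPB-ALL and above it in the 5 other lines. In HPB-ALL it rests on 25 peaks, and no interval was computed, so a difference between lines is not read from it. By segment the peaks of HPB-ALL did not follow length, with 1.36 per Mb in the middle and 0.161 per Mb in the inner segment. The 5 other lines fell too, with 2.32 (K562) to 8.92 (DND41) per Mb in the middle segment. In the inner one they had 0.129 (K562) to 1.48 (JURKAT). REH did not fall, with 0.36 and 0.645.

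The peaks of HPB-ALL on 3p also ranked low within its list. Their median score percentile was 26.7, and 3.33% of them (2 of 60) reached the top 25% of the list, while 48.3% fell in its bottom 25%. REH had a median percentile of 44.5 on 3p, with 19.5% in the top 25% and 26.8% in the bottom 25%. In the 5 other lines the median lay between 46.5 (JURKAT) and 55.9 (K562), the top 25% of the list held 23.9 to 28.0% of the 3p peaks and the bottom 25% held 20.8 to 26.6%. On 3q the median percentile of HPB-ALL was 55.0. Low scores on 3p were therefore seen beside low numbers in HPB-ALL. A list ends at its own lowest score, which was 80.0 in HPB-ALL and in SIL-ALL, 60 in DND41 and about 50 in REH and the others. With the highest of these floors put on all lists, the share on 3p was 0.470% in HPB-ALL and 0.787% (22 peaks) in REH, beside 2.28% (SIL-ALL) to 2.75% (DND41) in the other lines.

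**Figure D3:**
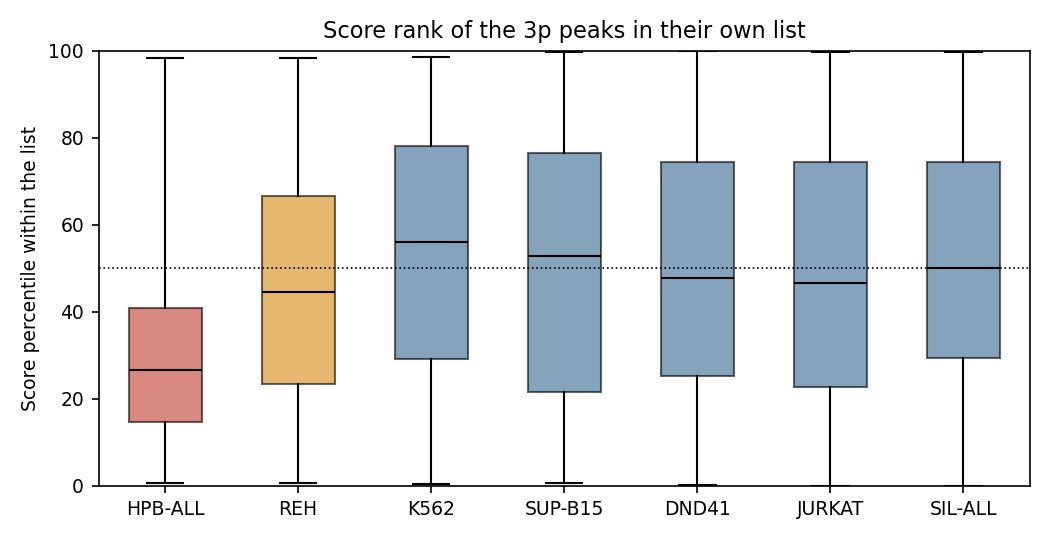
Score percentile of the 3p peaks within each line's own list; boxes run from the lower to the upper quartile with the median as a line, whiskers reach the lowest and highest peak, and the dotted line marks percentile 50. The box of HPB-ALL lies below the line (median 26.7), and the medians of the other lists lie between 44.5 and 55.9.

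Widths on 3p followed the list in most lines. The median width of 3p peaks was 158.5 bp in HPB-ALL (253 bp for its other peaks) and 226.5 bp in REH (213 bp). It was 648 bp in K562 (550 bp), 370 bp in SUP-B15 (350 bp) and 216.5 bp in DND41 (213 bp). JURKAT had 239 bp (240 bp) and SIL-ALL 219 bp (223 bp). HPB-ALL had narrower and K562 wider peaks on 3p than elsewhere, and the other lines differed by at most 20 bp.

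Across lines, neither width nor score percentile differed between 3p and the rest of the genome past the threshold of 0.05, and for sharing no result could have passed it. The median width on 3p minus that of all other peaks of the list averaged 5.07 ± 56.2 bp (SD, n = 7) and was higher on 3p in 4 of 7 lines (exact sign-flip permutation over lines, two-sided p = 0.625; smallest possible p = 0.0156). The score percentile differed by -3.70 ± 9.56 points and was higher on 3p in 2 of 7 lines (exact permutation p = 0.422). This difference is mostly that of HPB-ALL: without it the mean was -0.416. The share of peaks that overlapped a peak of another of the 5 lines was tested in those 5 lines only. It averaged 75.3% on 3p and 72.6% elsewhere, a difference of 2.62 ± 4.22 points (SD, n = 5) that was positive in 3 of 5 lines (exact permutation p = 0.3125; the smallest p that 5 lines allow is 0.0625). After Benjamini-Hochberg adjustment over these 3 tests each p was 0.625.

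The single peaks of HPB-ALL on 3p nearly all had a partner. Of its 60 peaks, 59 (98.3%) overlapped a peak of the 5 other lines, beside 80.8% of its peaks elsewhere. In REH 65.9% of the 3p peaks did so, beside 69.3% elsewhere. The values on 3p were 80.0% in K562, 77.3% in DND41, 74.2% in SIL-ALL, 72.6% in JURKAT and 72.3% in SUP-B15, each against another of the 5. HPB-ALL and REH had all 5 lists as possible partners and each of these lines fewer, so the values are not on an equal footing. The 3p peaks of HPB-ALL thus lay, with 1 exception, at places that other lines also marked.

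Several peaks of HPB-ALL stood close together. Its 60 peaks formed 9 groups of 2 to 5 peaks within 500 bp and 35 single peaks. The largest group lay in 3p21.1 (chr3:53078584-53080013), with 5 peaks and a best percentile of 62.5, and the next in 3p24.1 (chr3:30647864-30648847), with 4 peaks and a best percentile of 57.2. The groups with the best scores lay in 3p14.3 and 3p14.1.

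Merged regions were then read by the set of lines with a peak in them. Of the 664 regions on 3p, 386 (58.1%) had a peak of 1 line alone and 278 (41.9%) of 2 or more, close to the 58.2% and 41.8% of the 28407 regions outside 3p. The arm as a whole was thus as often shared as the rest of the genome. The makeup of the shared regions was different. Regions of the 5 lines without HPB-ALL and REH numbered 11 (1.66%), against a background of 0.13% (37 regions) outside 3p, and 22.9% of all such regions of the genome lay on this arm. Regions of DND41, JURKAT and SIL-ALL only numbered 31 (4.67%), against 0.975% outside. Both patterns require HPB-ALL to be absent, which is what the arm was chosen for, so nothing further is read from them.

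Patterns that include HPB-ALL were correspondingly rare. All 7 lines shared 9 regions (1.36%), against 2.46% outside 3p. The 4 T-ALL lines alone shared 2 regions (0.301%), against 2.3% (653 regions) outside. K562, REH and SUP-B15 alone shared 0 regions on 3p, where 0.197% of the regions outside did so, and REH and SUP-B15 alone shared 4 (0.602%), against 1.08%. Of the regions with a peak of 1 line alone, HPB-ALL had 1 (0.151% of the 3p regions, against 8.17% outside 3p) and REH 28 (4.22%, against 8.27%). K562 had 25 (3.77%, against 5.25%), SUP-B15 44 (6.63%, against 5.19%) and SIL-ALL 87 (13.1%, against 12%). DND41 had 92 (13.9%, against 9.3%) and JURKAT 109 (16.4%, against 9.99%). Taken within each line, the share was low on 3p in HPB-ALL and near that elsewhere in REH: of the 44 regions of HPB-ALL 2.27% were its alone, against 24.4% elsewhere, and of the 72 of REH 38.9%, against 36.8%.

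Regions marked by several of the 5 other lines gave a common yardstick, used for description only. HPB-ALL and REH were chosen for few peaks on 3p, so a low share there follows from that choice and is no separate support. On 3p 137 regions had a peak in at least 3 of K562, SUP-B15, DND41, JURKAT and SIL-ALL. HPB-ALL had a peak in 32 of them (23.4%, Wilson 95% interval 17.1 to 31.1%), against 74.3% of such regions outside 3p and 82.1% on 3q. REH had a peak in 28 (20.4%, 14.5 to 28.0%), against 44.2% outside 3p and 44.9% on 3q. In both lines the share on 3p was far below that elsewhere. By segment, HPB-ALL was even, with 20.4% (10 of 49) in the outer, 24.7% (19 of 77) in the middle and 27.3% (3 of 11) in the inner segment. REH was not, with 34.7% (17 of 49), 6.49% (5 of 77, 2.81 to 14.3%) and 54.5% (6 of 11).

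Each of the 5 other lines was set in the same way against at least 3 of the remaining 4. K562 had a peak in 46.7% of those regions on 3p, against 44.3% outside. SUP-B15 had 50%, against 52.9%. DND41 had 89.4%, against 83.9%, and JURKAT 89.4%, against 82.5%. SIL-ALL had 75.8%, against 81.2%. In these lines the share on 3p lay within 7 points of that elsewhere. K562 and SUP-B15 were also lower in the middle segment (36.2% and 39.7%) than in the outer one (66.7% and 60.9%), and so, by less, were DND41 (83.7% and 94.4%), JURKAT (87.8% and 89.5%) and SIL-ALL (77.3% and 78.9%). A lower share in the middle segment than in the outer one was thus not particular to REH.

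**Figure D4:**
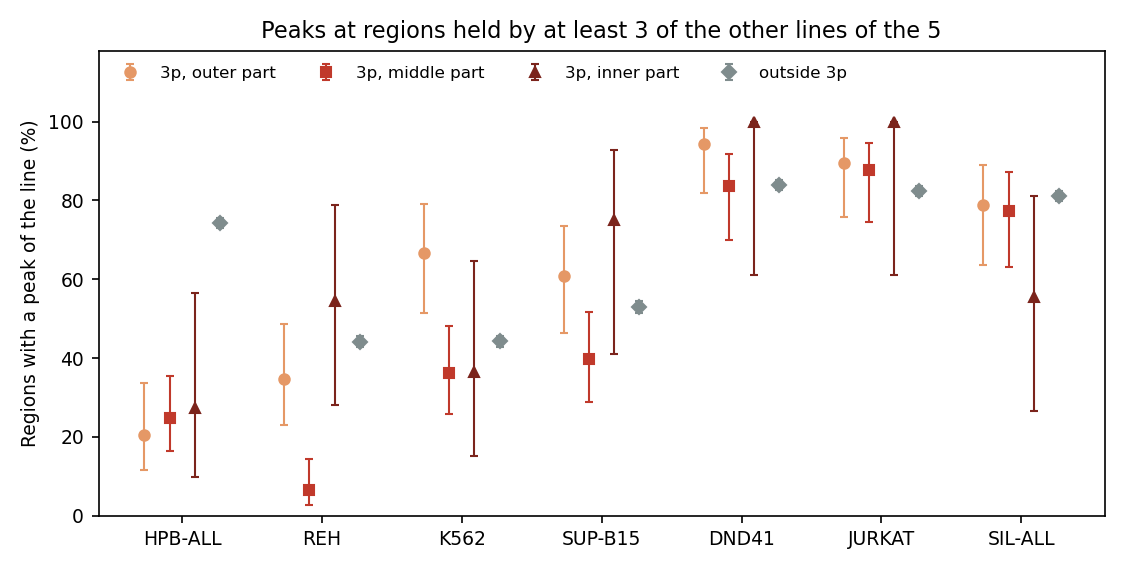
Percentage of regions with a peak in at least 3 of the other lines of the 5 (K562, SUP-B15, DND41, JURKAT, SIL-ALL) that also have a peak of the line named, in the outer (0 to 35 Mb), middle (35 to 60 Mb) and inner (60 to 91 Mb) parts of 3p and outside 3p, with Wilson 95% intervals. HPB-ALL lies between 20.4% and 27.3% in all parts of 3p against 74.3% outside, and REH is lowest, at 6.49%, in the middle part.

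Where HPB-ALL did have a peak at such a region, it ranked low. In 32 of 32 regions on 3p its best peak had a lower percentile than the median of the other lines there, with a median of 29.6 against 82.5 in those lines. Outside 3p its percentile was lower in 41.9% of 3930 regions, with a median of 78.2. REH was lower in 21 of 28 regions (75%) on 3p and in 63.5% outside, with medians of 58.9 on 3p and 67.3 outside. By the same measure SUP-B15 was lower in 68.9% on 3p (68.2% outside) and K562 in 63.2% (72.6% outside). DND41, JURKAT and SIL-ALL were lower in 38.2 to 39.5% on 3p. A lower rank at most such regions was thus not particular to REH. At the 9 regions of all lines on 3p the median percentile of HPB-ALL was 41.5, against 92.5 at the 700 such regions elsewhere. That of REH was 58.3, against 75.5. In the 5 other lines it was 80.6 to 95.4 on 3p and 74.1 to 93.0 elsewhere. HPB-ALL thus had both fewer and lower-ranked peaks at the places on 3p that other lines marked. Those places were picked by peaks of the other lines, and HPB-ALL was chosen for few peaks on 3p. The low rank is therefore a description too, and no support separate from the low number.

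The region that led the arm lay in 3p14.3 (chr3:58222617-58224523, mean percentile 98.5 over 7 lines). Its best peak scored 1030 in HPB-ALL, 300 in REH, 378 in K562, 489 in SUP-B15, 2212 in DND41, 1096 in JURKAT and 2188 in SIL-ALL. It held the highest-scored 3p peak of HPB-ALL, REH, DND41, JURKAT and SIL-ALL, and in all lines it stood at or above percentile 95.1. Even in the lines with few peaks on the arm this region thus ranked at percentile 98.4. It was also the widest 3p peak of HPB-ALL (906 bp), REH (590 bp) and SIL-ALL (1290 bp).

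The second region of all lines lay in 3p26.1 (chr3:5019220-5022329, mean percentile 91.3), with 22 peaks over the lists. The percentile there was 69.1 in HPB-ALL and 90.5 in REH, 90.0 in K562, 90.3 in SIL-ALL and at least 99.4 in JURKAT, DND41 and SUP-B15. It held the widest 3p peaks of SUP-B15 (2545 bp) and DND41 (2332 bp). The third, in 3p14.1 (chr3:67048592-67049833, 79.7), divided HPB-ALL from REH the other way, at percentiles 82.7 and 26.0. The fourth, in 3p22.3 (chr3:32611315-32612375, 78.4), had 27.4 in HPB-ALL and 91.6 in REH, and the fifth, in 3p24.2 (chr3:23957504-23958685, 70.6), had 41.5 and 30.4. The other 4 regions of all lines lay in 3p23, 3p24.3, 3p21.2 and 3p13, with mean percentiles of 49.5 to 63.4.

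The highest-scored 3p peaks of both lines lay mostly in these shared regions. After the peak in 3p14.3, HPB-ALL had a score of 290 in 3p14.1 (chr3:67049006-67049340) and of 196 in 3p23 (chr3:31573719-31573986, percentile 69.8). REH had a score of 149 in 3p22.3 (chr3:32611971-32612310, percentile 91.6) and of 148 in 3p14.2 (chr3:61548432-61548811, percentile 91.4). This last peak of REH was shared with SUP-B15 only.

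Of the 11 regions of the 5 lines without HPB-ALL and REH, the first lay in 3p24.3 (chr3:20081312-20083226, mean percentile 87.7), where K562 scored 168, SUP-B15 95.3, DND41 607, JURKAT 575 and SIL-ALL 833. Second came a region in 3p13 (chr3:71113288-71115214, 81.6), a band that carries FOXP1, a forkhead transcription factor gene of lymphoid development. In that region JURKAT had its widest 3p peak (1927 bp, score 1076), while the others scored 126 to 238. They were followed by 3p24.2 (chr3:23986496-23988181, 81.4), 3p21.31 (chr3:45635436-45636296, 80.6) and 3p25.3 (chr3:11760016-11762389, 77.4), where K562 scored 520. The other 6 had mean percentiles of 43.3 to 74.2. In the first 5 the percentiles ran from 46.3 (SUP-B15 in 3p25.3) to 98.6 (JURKAT in 3p24.3); these regions were named for a high mean percentile. Among the other 6 the percentiles went as low as 2.15 (SUP-B15 in 3p26.1) and 2.72 (JURKAT in 3p25.1).

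**Figure D5:**
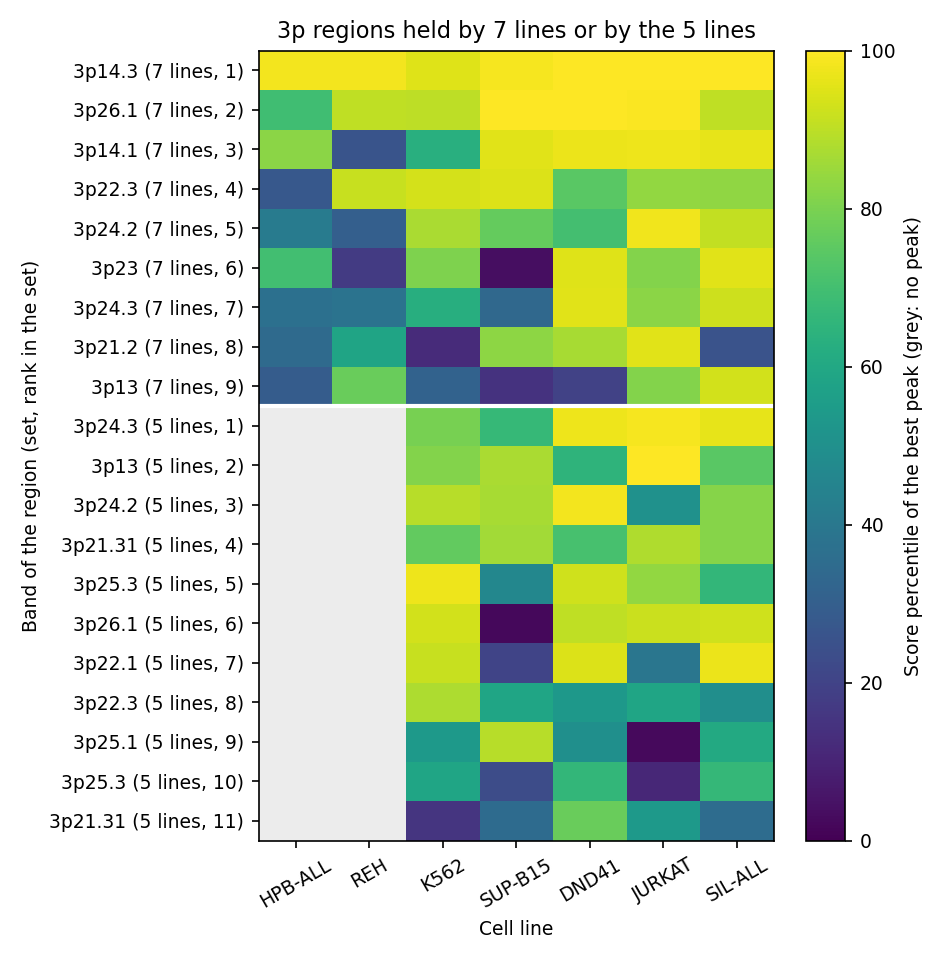
Score percentile of the best peak of each line (columns) in the 9 regions of 3p held by 7 lines and the 11 held by the 5 lines without HPB-ALL and REH (rows, by band and by rank of the mean percentile); grey means no peak. The first row (3p14.3) is high in all lines, and HPB-ALL is below 42 in 5 of the other 8 rows of the upper block and REH in 4.

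The remaining named regions belonged to smaller sets. The 2 regions of the T-ALL lines alone lay in 3p24.1 (chr3:30647838-30649086, mean percentile 75.7), the band of the TGF-beta receptor gene TGFBR2, and in 3p14.3 (chr3:57542437-57543042, 40.4). In the first, scores were 154 in HPB-ALL, 272 in DND41, 96.6 in JURKAT and 621 in SIL-ALL. The regions of REH and SUP-B15 alone lay in 3p22.3 (chr3:32442786-32443561, 85.3), 3p14.1 (chr3:69062188-69063146, 84.0), 3p25.2 (chr3:13237336-13238008, 80.9) and 3p14.2 (chr3:61548432-61548812, 67.7). None of these 4 lay in the middle segment.

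Among regions of 1 line, HPB-ALL had its single one in 3p21.2 (chr3:52002226-52002368, percentile 6.13). REH had its best in 3p25.2 (chr3:13276273-13276545, 69.2), K562 in 3p25.1 (chr3:13323132-13323896, 82.6) and SUP-B15 in 3p21.31 (chr3:50297487-50298295, 85.0). DND41 had its best in 3p21.31 (chr3:44903354-44903727, 82.7), JURKAT in 3p21.1 (chr3:52441187-52441351, 92.7) and SIL-ALL in 3p25.1 (chr3:14274198-14274631, 89.3). The widest 3p peak of all lists, 2558 bp in K562 (chr3:46922761-46925318, 3p21.31), lay in a region of 4 lines. In that region REH had the percentile 80.4 peak named above, at the end of its longest empty stretch.

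By number, the pair of lines with most regions of 3p in common was DND41 and JURKAT. DND41 had 302 regions on 3p and JURKAT 313, of which 157 were common, 52.0% of those of DND41 and 50.2% of those of JURKAT, against 49.1% and 46.7% outside 3p. HPB-ALL had 44 regions, of which 41 (93.2%) were also held by DND41, where they made up 13.6% of its regions. Outside 3p these shares were 52.4% and 50.3%. REH and SUP-B15, both B-cell precursor lines, shared 31 regions, 43.1% of the 72 of REH and 21.1% of the 147 of SUP-B15, against 36.1% and 39.5% outside. HPB-ALL and REH had 13 regions in common, 29.5% of those of HPB-ALL and 18.1% of those of REH, against 24.3% and 36.2% outside.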

How the data were processed

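The authors deposited 1 list of KDM2B ChIP-seq peaks per line, with each peak's position, name and score. FastQC 0.10.1, Bowtie 1.1.1 and the build hg19 are named, per the submitters' processing notes. Peak names are of the kind MACS writes; the sources used here give neither its version, control and threshold nor the number of reads. The score deposited by the authors has no stated unit and was used to rank peaks within a list, as percentiles; the alternative with a common floor assumes 1 scale. Deposited starts were read as counting from 0, as BED files do, and are printed 1-based.

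Peaks were assigned to 3p by midpoint, counted in 5 Mb bins and merged over all lists where they overlapped by at least 1 bp (Python 3.11.15, numpy 2.4.6, pandas 2.3.3, scipy 1.17.1). Bands came from the hg19 table of circlize 0.4.16. The depth is unknown, so no interval could be given for the presence of a peak; Wilson 95% intervals of shares cover counting error only. Width, score percentile and sharing were compared within lists by exact sign-flip permutation over lines, after tests on simulated data, so that a p reflects differences between lines and between libraries at once. Regions were named by rule: the 5 best by mean percentile among those of all lines and of the 5 lines, up to 3 of each smaller set, the best of each line alone, the 3 best peaks of HPB-ALL and REH and the widest of each list. For REH and SUP-B15 alone, all 4 regions were named, where the rule gave 3. The arm, the lines singled out and the lists were chosen with earlier results of these data known. Sequences and genes under peaks were not analysed here, and inputs were not used.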

Additional observations from a re-analysis of the deposited data

Results flagged for a closer look

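In a group of 7 lists, HPB-ALL stood apart from the others in the score rank of its 3p peaks. Its median score percentile on 3p was 26.7, while the next lowest was 44.5 in REH and the highest 55.9 in K562. In the same line 48.3% of the 3p peaks fell in the bottom 25% of the list, while the next highest share was 26.8% in REH and the lowest 20.8% in K562. Both values describe the same peaks and so are not separate findings. Of 12 measures examined by the gap to the next value over the range, 2 were flagged. Chance would flag about 0.6 in data not selected beforehand. Here the arm and HPB-ALL were chosen for the share on 3p, which several of the measures restate, so no excess over chance is read from this.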

How the results depend on the processing

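Of 121 alternative values, 86 were classed as the same as the value reported, 27 moved and 8 changed sign. The 27 include the shares of chromosome 3, which have another denominator than the shares of the list. Those had to be classed as moved and say nothing about stability. The class of 86 is not a count of values that stayed close. It held width differences of 23.3 bp (5 lines without HPB-ALL and REH) and 21.7 bp (without HPB-ALL), beside 5.07 bp reported. It also held a percentile difference of -0.416 (without HPB-ALL), beside -3.70 reported. Among region counts it held 42 for DND41, JURKAT and SIL-ALL only (without SUP-B15), beside 31 reported. The share of the list on 3p was 0.168% in HPB-ALL with equal lists (the 5942 best peaks of each), 0.172% with peaks at or above the median score and 12.3% as a share of chromosome 3; in REH it was 0.787% with a common floor and 27.0% of chromosome 3, and the median of the 5 lines was 46.6% of chromosome 3. Regions of all lines numbered 2 with equal lists, 2 above the median score, 3 with a common floor, and 8 to 16 with 1 line left out (16 without REH). Regions of the 5 lines numbered 6 with a common floor and 11 in the full set, and 12 to 24 with 1 line left out (24 without SUP-B15, 21 without K562, 18 without HPB-ALL). Those of DND41, JURKAT and SIL-ALL only numbered 5 with equal lists, 11 above the median score, and 33 to 66 with 1 line left out (66 without SIL-ALL, 62 without JURKAT, 58 without DND41, 47 without K562), in part because fewer lines then have to be absent or present. Regions of 1 line alone numbered 210 with equal lists, 185 above the median score, 253 with a common floor and 250 with peaks within 500 bp joined. At 3p regions of at least 4 of the 5 lines HPB-ALL had a peak in 35.1%, against 82.7% outside 3p. At regions of all 5 HPB-ALL had one in 51.6%, against 88.3% outside, and REH in 41.9%, against 66.9%. These limits, and the split at 35 and 60 Mb, were chosen after seeing the data. The width difference changed sign to -18.1 bp above the median score, -12.1 with a common floor, -20.9 with peaks joined and -0.786 against 3q, and ran from -10.4 (without K562) to 21.7 (without HPB-ALL). The percentile difference was 0.607 in the 5 lines and -5.34 to -0.416 with 1 line left out, and the sharing difference -0.563 with equal lists, -0.542 against 3q and 1.14 to 3.39 with 1 line left out. The p-values of these 3 tests ran from 0.1875 to 0.953, 0.156 to 0.844 and 0.0625 to 0.875 over their alternatives; the cause of the changes of sign was not tested. No paired analysis was possible between lines, because every cell line came with a single list and no replicate number; the 3 tests above compare peaks within each list. Read depth, which decides how many weak peaks a list holds, is unknown and limits every count.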
